A study of Cercocebus atys with 16 samples.

Results

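Type I interferon-stimulated genes are the genes that cells switch on after type I interferon binds its receptor. They were followed gene by gene in double-negative T cells of sooty mangabeys. Of 40 such genes listed, 31 carried their symbol in the gene name column of the arrays, on 42 probes, and all 31 were well above background in at least 2 animals. EPSTI1, HERC6, IFI44, IFI6, OAS3, PLSCR1, SP110, USP18 and ZBP1 were not matched by that column and make up the other 9. The 31 genes stand among 23099 tested features, of which 8551 carried a gene symbol. For each gene the probe with the highest mean intensity was used, and 9 of the 31 genes had more than 1 probe.

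The cells came from 4 sooty mangabeys (Cercocebus atys), all infected with SIV, the simian immunodeficiency virus that this monkey species carries in nature. FBR and FTV are labelled CD4-low, and FNV and FKN CD4-normal. Bead isolation removed CD4, CD8 and CD16 positive cells from blood mononuclear cells and then selected CD3 positive cells, with a stated purity above 98%. After a night of rest, stimulated cells received anti-CD3 and anti-CD28 antibodies for 4 hours, and unstimulated cells of the same animal received none. The antibodies mimic the T cell receptor and costimulatory signals, and the labels name no added interferon. No uninfected animal is among the samples analysed here. Each animal had 4 arrays of 2 colours: stimulated against unstimulated RNA in both dye orientations, stimulated RNA against itself, and unstimulated RNA against itself. The array was designed on the rhesus macaque, and sequence differences between the species can lower a signal. Animals are the replicates, and the labels do not say that any animal's cells were isolated or cultured more than once.

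As background, type I interferons bind a receptor made of IFNAR1 and IFNAR2, whose kinases JAK1 and TYK2 phosphorylate STAT2. With IRF9 it forms a complex that binds interferon response elements in the promoters of the genes described here. Their products block virus entry, translation, replication and release, sense viral RNA, or tag proteins with ISG15. In sooty mangabeys, which usually do not progress to AIDS, blood interferon-stimulated transcripts are known to rise in acute SIV infection and to fall again in the chronic phase.

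Between 33.3% and 65.0% of the spots per channel were well above background. The stimulated self-self array of FNV was the lowest, with 33.3% and 37.6%, and all other channels had 52.0% or more. That array enters the stimulated levels of FNV and its self-self response. The lowest correlation between any pair of ratio arrays over all tested features, turned to stimulated over unstimulated, was 0.64, and the lowest between the 2 arrays of 1 animal was 0.91. On 1 ratio array of FNV the title and a characteristic disagree on the channels, and the title was followed. FNV was scanned on another scanner than the other 3 animals, so its scan batch holds no second animal. All 4 arrays of an animal lay on 1 slide, which it shared with no other animal here. Differences in level between animals and between slides therefore cannot be told apart. The label of CD4-negative cells was checked on the RNA of CD4, a single gene with an intensity of 562 to 918 in stimulated and 583 to 740 in unstimulated cells. CD4 was well above background in 16 of 16 stimulated and 16 of 16 unstimulated channels, so its RNA was not absent. Its unstimulated log2 intensity was 9.19 to 9.53, and that of the T cell marker CD247 was 8.21 to 9.60. These are different probes, so their intensities do not compare the amounts of the 2 RNAs. CD8A, CD8B and the gamma-delta receptor genes had no probe that was matched by symbol and kept by the filter on dim probes. All 8 T cell markers passed the filter on dim probes, with a summed unstimulated intensity of 88285 in FBR, 90594 in FTV, 57287 in FNV and 90656 in FKN. FNV stood apart in monocyte markers, with a summed intensity over 7 of 8 genes of 37395 in stimulated and 107835 in unstimulated cells, against 3868 to 6194 and 4968 to 10150 in the other animals. FNV was also highest in the 4 measured of 8 B cell markers, with 14243 in unstimulated cells against 1974 to 3374. FTV stood apart in the natural killer cell markers KLRD1 and KLRF1 and in the sum of that list, which these 2 genes carried there, with 8433 in stimulated and 4969 in unstimulated cells over 4 of 6 genes, against 389 to 698 and 380 to 781. FCGR3A and NCR1 of that list were not measured, and its other 2 genes, NCAM1 and FGFBP2, were highest in FNV and not in FTV. In these bulk RNA samples, a change in the number of cells of a type and a change in RNA per cell cannot be told apart.

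Probes of 6 members are shown to let a reader see which transcripts the signals report. BST2 was the only member that passed the test upward over all 4 animals, OAS2, EIF2AK2 and MX2 differed widely between animals at rest, and IFIH1 and DHX58 are RNA sensors with opposite signs in FTV and in the other animals. Coordinates are those of the array files on the rhesus build rheMac2.
BST2, second probe, chr19:16968108-16968167, minus strand: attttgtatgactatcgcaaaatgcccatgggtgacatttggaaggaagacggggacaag
OAS2, chr11:113940297-113940356, plus strand: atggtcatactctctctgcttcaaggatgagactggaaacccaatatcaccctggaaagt
EIF2AK2, chr13:37103480-37117078, minus strand: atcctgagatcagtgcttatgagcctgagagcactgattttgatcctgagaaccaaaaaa
MX2, chr3:5230716-5230775, minus strand: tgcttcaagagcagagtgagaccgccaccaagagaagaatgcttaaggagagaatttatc
IFIH1, chr12:25838931-25838990, minus strand: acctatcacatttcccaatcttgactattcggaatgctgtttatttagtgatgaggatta
DHX58, chr16:52208319-52208378, minus strand: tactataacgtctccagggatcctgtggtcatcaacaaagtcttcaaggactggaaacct
Each probe is 60 bases long and has 2 reading frames without a stop codon. Exon and UTR annotation of this build was not used here. The EIF2AK2 probe covers 13599 bases of genome, so its bases do not lie in 1 unbroken stretch. Over 848 pairs of probes of different members, the longest run of bases shared was 11, between DHX58 and OAS2.

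Stimulation changed few of these genes in a way shared by the 4 animals. BST2 rose, RTP4 and SAMD9 fell, and the other 28 did not pass limma's test (adjusted p under 0.05 over all tested features). Thus 1 of 31 members was called higher, where 19.1% of all tested features were, and 2 of 31 were called lower, where 21% were. At an unadjusted p under 0.05, 8 of 31 members were called, against 50.4% of all features. The mean log2 ratio of stimulated over unstimulated ran from -0.69 for IFIT1 to 0.82 for BST2, with a median of -0.25, against -0.014 for all tested features. A log2 ratio of 1 is a 2-fold difference.

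BST2 encodes tetherin, which holds budding virus on the cell surface. Its log2 ratio was 1.02 in FBR, 0.096 in FTV, 1.02 in FNV and 1.16 in FKN. On this probe FTV stood far below the other 3, which lay close together. Its levels were 13.21 in FBR, 13.45 in FTV, 14.34 in FNV and 13.79 in FKN in stimulated cells, against 12.24, 13.33, 13.26 and 12.55 in unstimulated cells in that order. The mean ratio was 0.82 ± 0.49 (SD, n = 4; 1.77-fold; limma adjusted p = 0.0225), and the second BST2 probe, printed above, gave 0.81 ± 0.48. On that second probe FTV was again lowest (0.24), but the others were spread more widely, with 1.10 in FBR, 0.59 in FNV and 1.29 in FKN.

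RTP4 encodes a receptor transporter protein with antiviral activity in mammals. RTP4 had log2 ratios of -0.48 in FBR, -1.12 in FTV, -0.24 in FNV and -0.71 in FKN, below 0 in all 4 animals. It fell by 0.64 ± 0.37 on the log2 scale (SD, n = 4; limma adjusted p = 0.0232). SAMD9, which restricts poxviruses, had log2 ratios of -0.48 in FBR, -1.13 in FTV, -0.15 in FNV and -0.73 in FKN. It fell by 0.62 ± 0.41 on the log2 scale (SD, n = 4; limma adjusted p = 0.0324). In both genes the lowest ratio was that of FTV and the highest that of FNV.

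The animals did not share 1 direction in most members. The log2 ratio had the same sign in all 4 animals in 7 of 31 members (BST2, TRIM22, ISG20, SAMD9, RTP4, HERC5 and PARP12), against 58.1% of all tested features. The SD of the ratio between animals had a median of 0.64 over the members and 0.16 over all features, and 26 of 31 members lay in the top 10% of all features for it. The values are therefore given per animal.

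FTV was the animal whose ratios stood apart. In FTV 30 of 31 members had a log2 ratio below 0, BST2 being the exception, against 50.5% of all tested features. In FBR 13 of 31 members were below 0 (50.9% of all features), in FNV 11 (52%) and in FKN 14 (51.5%). The median ratio of the members was 0.10 in FBR, -0.93 in FTV, 0.24 in FNV and 0.076 in FKN, while the median over all features lay between -0.012 and -0.0044 in every animal. FTV had the lowest ratio of the 4 animals in 29 of 31 members, where 22% of all features had theirs in FTV, and the exceptions were IFIT2, lowest in FKN, and IFI35, lowest in FNV. Its ratio was -1 or lower in 14 of 31 members, against 5.09% of all features.

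**Figure D1:**
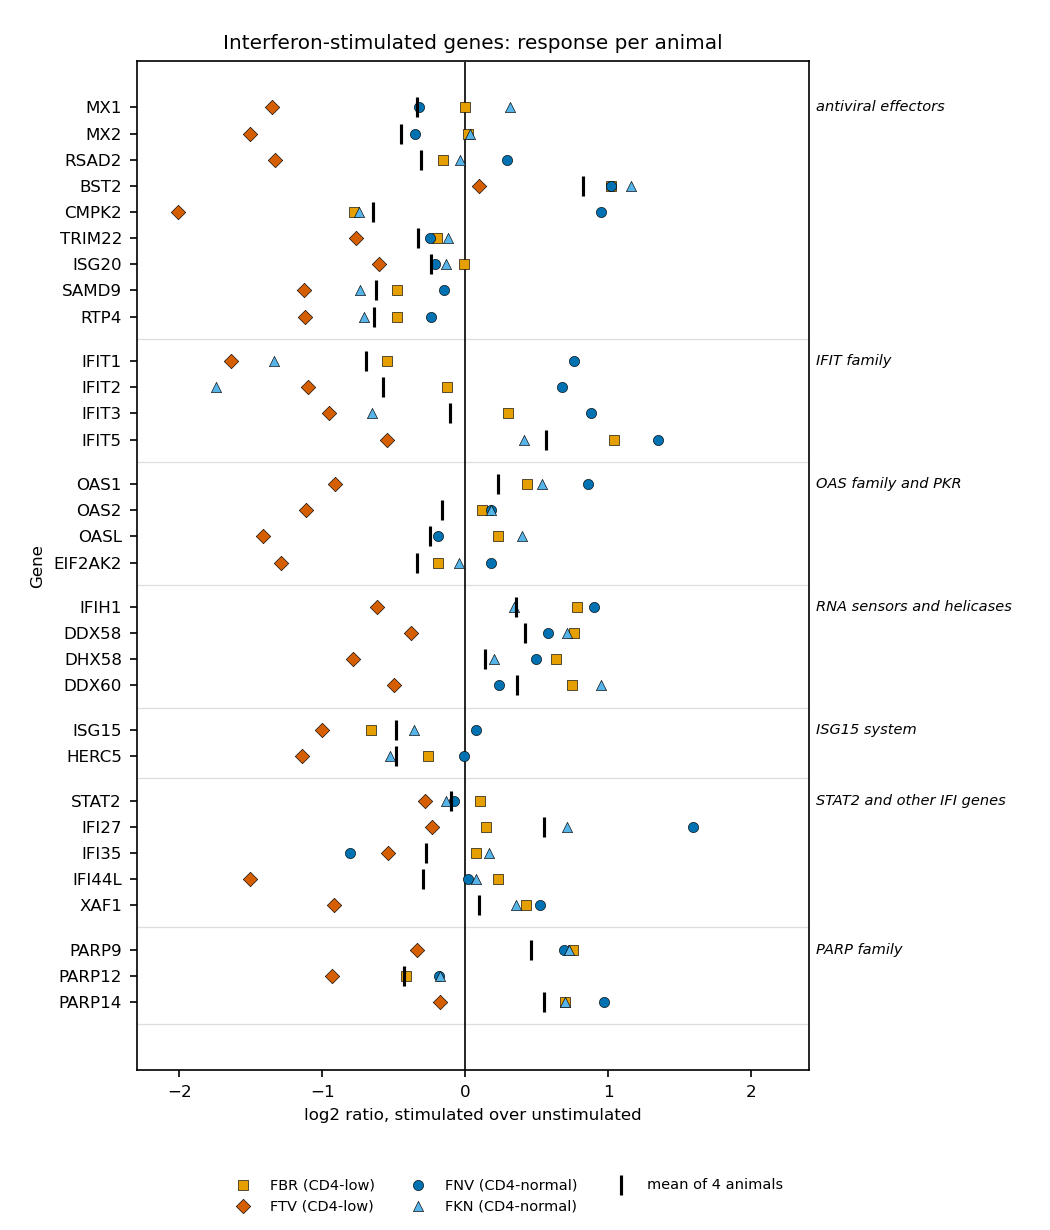
Log2 ratio of stimulated over unstimulated (horizontal axis) for the 31 genes, grouped by role, with 1 symbol per animal (mean of 2 dye-swapped arrays) and a bar for the mean of 4 animals. The FTV symbol lies below 0 for 30 of 31 genes, while the other animals lie on both sides of 0.

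The ratios were also read on separate hybridisations of the same samples, on the same slide of each animal. The 2 dye orientations gave the same sign in 28 of 31 members in FBR, 29 in FTV, 29 in FNV and 28 in FKN. The difference between the stimulated and the unstimulated self-self arrays, which were not used for the ratios, had the sign of the ratio in 29 of 31 members in FBR, 31 in FTV, 30 in FNV and 29 in FKN. From these arrays the median member response was 0.070 in FBR, -0.93 in FTV, 0.47 in FNV and 0.048 in FKN. In the authors' deposited table the median over the members was 0.16 in FBR, -0.996 in FTV and 0.24 in FKN over 31 members, and 0.70 in FNV over the 30 listed for it. That table holds 1 value per accession and can pool probes.

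**Figure D2:**
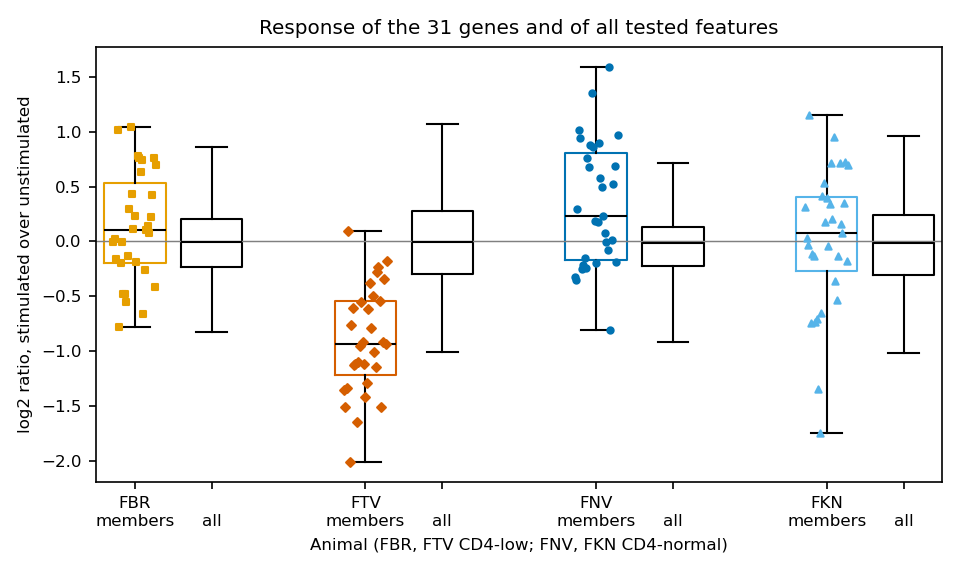
Log2 ratio of stimulated over unstimulated (vertical axis) in each animal for the 31 genes (coloured points and box, whiskers to the lowest and highest) and for all tested features (black box, whiskers to the 5th and 95th percentile). The median of the genes is -0.93 in FTV and between 0.076 and 0.24 in the other animals, while the features have medians near 0 in all 4.

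FTV stood apart in level as well, more so in unstimulated cells. Levels are log2 intensities after normalisation between arrays, each the mean of 4 channels of an animal and condition, and are compared between animals for 1 probe at a time. The stimulated level was highest in FTV in 24 of 31 members, against 19.9% of all tested features. Its median gap to the next highest animal was 0.35, and 3 members (ISG20, IFIT1 and ISG15) had a gap of 1 or more, against 0.641% of all features. The unstimulated level was highest in FTV in 31 of 31 members, where 20.9% of all features had their highest level there. In 24 members unstimulated FTV exceeded the next highest animal by 1 or more, as did 1% of all features. That gap had a median of 1.49, from 0.065 for TRIM22 to 2.81 for IFIT1.

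Among the other animals no order was shared by all members. FNV had the lowest unstimulated level in 20 of 31 members, FBR in 8 and FKN in 3. In stimulated cells FTV lay above FBR by a median of 0.58, above FKN by 0.69 and above FNV by 1.04. In unstimulated cells these medians were 1.67 against FBR, 1.64 against FKN and 2.10 against FNV. Beside these levels stand 2 of the 4 measured natural killer cell markers in FTV: KLRD1, a lectin-like receptor of natural killer and cytotoxic T cells, had an unstimulated level of 12.03 in FTV and 6.72 to 7.73 in the other animals, and KLRF1, another natural killer receptor, 8.90 in FTV and 6.41 to 6.64 in the others. The other 2 markers did not set FTV apart: NCAM1, an adhesion molecule of natural killer cells, was at 6.86 in FTV and 6.66 to 7.75 in the others, and FGFBP2, a protein secreted by cytotoxic cells, was at 7.58 in FTV and 6.47 to 7.98 in the others. GZMB, the protease granzyme B of cytotoxic cells and plasmacytoid dendritic cells, was at 15.88 in FTV and at 12.12 to 12.77 in the others. LILRA4, the other measured marker of plasmacytoid dendritic cells, the main makers of type I interferon, was highest in FNV at 9.85, with 7.86 in FTV and 7.30 to 7.37 in FBR and FKN. CLEC4C, IL3RA, TCF4 and SPIB had no probe that was matched by symbol and kept by the filter on dim probes. Whether these markers have a part in the levels of FTV was not tested.

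Stimulated cells of the 4 animals were more alike than unstimulated ones. The SD between animals was smaller in stimulated than in unstimulated cells in 30 of 31 members, against 52.6% of all features, the exception being IFIT2. The median SD of the members was 0.52 in stimulated and 0.94 in unstimulated cells, while all features had 0.29 in both. Of the members, 8 lay in the top 10% of all features for the SD of the stimulated level and 27 for that of the unstimulated level. The narrowing rested on FTV: between the other 3 animals the median SD was 0.44 in stimulated and 0.45 in unstimulated cells, and 19 of 31 members had the smaller SD after stimulation, against 50.6% of all features.

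**Figure D3:**
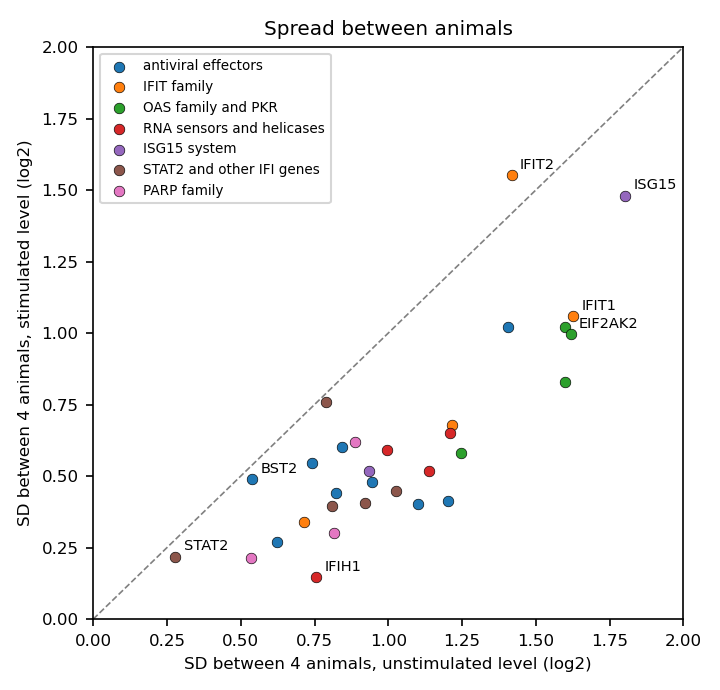
SD between the 4 animals of the stimulated level (vertical axis) against that of the unstimulated level (horizontal axis) for the 31 genes, coloured by role, with the line of equal SD dashed. All genes but IFIT2 lie below the line.

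The antiviral effectors held the 3 called members and 6 that did not pass. MX1 and MX2 are dynamin-like GTPases that trap viral ribonucleoproteins and, for MX2, lentiviral capsids. MX1 had stimulated levels of 13.66 in FTV, 13.34 in FBR, 12.52 in FNV and 13.21 in FKN. Its unstimulated levels were 15.00 in FTV, 13.45 in FBR, 13.04 in FNV and 12.98 in FKN, so FTV lay well above the other 3 at rest and near FBR and FKN after stimulation. Its log2 ratio was -0.0038 in FBR, -1.35 in FTV, -0.33 in FNV and 0.32 in FKN. MX2 had ratios of 0.019 in FBR, -1.50 in FTV, -0.35 in FNV and 0.030 in FKN, with values near 0 in FBR and FKN and a value below -1 in FTV, where its second probe gave -1.35.

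RSAD2 (viperin) makes a chain-terminating nucleotide from CTP, and CMPK2 is the mitochondrial nucleotide kinase whose gene is its neighbour in the genome. RSAD2 had ratios of -0.16 in FBR, -1.33 in FTV, 0.29 in FNV and -0.035 in FKN. CMPK2 had ratios of -0.78 in FBR, -2.01 in FTV, 0.95 in FNV and -0.74 in FKN, the lowest single ratio of any member being that of FTV. Its mean of -0.65 ± 1.21 (SD, n = 4; limma adjusted p = 0.303) is smaller than its spread. TRIM22, a ubiquitin ligase that represses retroviral transcription, had ratios of -0.12 to -0.76, below 0 in every animal and with all 3 of its probes, but did not pass (mean -0.33 ± 0.29, SD, n = 4; limma adjusted p = 0.0793). ISG20, an RNA exonuclease, had ratios of -0.0081 to -0.60, again lowest in FTV, but its second probe was above 0 in FBR (0.085).

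The IFIT proteins bind viral RNA ends and block its translation. In sign, IFIT1, IFIT2 and IFIT3 split FNV from FKN, the 2 CD4-normal animals, while IFIT5 was above 0 in both. Outside the family, FNV alone was above 0 in CMPK2, RSAD2, ISG15 and, on the probe used, EIF2AK2. A second EIF2AK2 probe was above 0 in FBR (0.15), FNV (0.28) and FKN (0.11), and the third in FNV alone (0.21). IFIT1 had ratios of -0.55 in FBR, -1.64 in FTV, 0.76 in FNV and -1.34 in FKN. IFIT2 had ratios of -0.13 in FBR, -1.10 in FTV, 0.68 in FNV and -1.75 in FKN. For both genes FNV alone was above 0. The IFIT1 level was 11.15 in FBR, 12.88 in FTV, 11.52 in FNV and 10.35 in FKN in stimulated cells, against 11.75, 14.55, 10.82 and 11.67 in unstimulated cells in that order. FTV kept a gap of more than 1 to the next animal in both conditions. IFIT3 had ratios of 0.30 in FBR, -0.95 in FTV, 0.88 in FNV and -0.65 in FKN, and IFIT5 had 1.04 in FBR, -0.55 in FTV, 1.35 in FNV and 0.41 in FKN. IFIT1 had the lowest mean ratio of all members (-0.69 ± 1.07, SD, n = 4; limma adjusted p = 0.221) and IFIT5 the second highest (0.56 ± 0.84, SD, n = 4; limma adjusted p = 0.21); the 2 means differ in sign and neither passed. The high IFIT ratios of FNV stand beside its monocyte marker signal, which had a median log2 ratio of -1.46 in FNV; their part in the ratios was not tested.

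The OAS enzymes make the oligoadenylates that activate RNase L, and PKR, encoded by EIF2AK2, stops translation on binding double-stranded RNA. All 4 measured genes of this group had their lowest ratio in FTV and at least 1 animal above 0. OAS2 had ratios of 0.11 in FBR, -1.12 in FTV, 0.18 in FNV and 0.18 in FKN, the 3 values above 0 lying close together. OAS1 had 0.43 in FBR, -0.92 in FTV, 0.86 in FNV and 0.53 in FKN. OASL, an OAS-like protein without enzyme activity in humans, had 0.23 in FBR, -1.42 in FTV, -0.19 in FNV and 0.40 in FKN. EIF2AK2 had -0.19 in FBR, -1.29 in FTV, 0.18 in FNV and -0.045 in FKN, and its other 2 probes gave -0.80 and -1.22 in FTV. In each of these 4 genes FTV was farther from the nearest other animal than the other 3 were from each other.

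The RNA sensors and helicases had the same pattern in all 4 genes: above 0 in FBR, FNV and FKN and below 0 in FTV. IFIH1 encodes MDA5 and DDX58 encodes RIG-I, the cytosolic sensors of viral RNA, DHX58 encodes their regulator LGP2, and DDX60 is a related helicase. IFIH1 had ratios of 0.78 in FBR, -0.62 in FTV, 0.90 in FNV and 0.34 in FKN. Its stimulated level lay between 11.91 and 12.20 in all 4, and its unstimulated level was 12.86 in FTV against 11.24 to 11.54 in the others. For IFIH1 the animals thus lay close together after stimulation and FTV lay above them at rest. DDX58 had ratios of 0.76 in FBR, -0.38 in FTV, 0.58 in FNV and 0.71 in FKN. Unlike IFIH1, its stimulated level was still highest in FTV, at 9.20 against 7.61 to 8.38 in the others, and its unstimulated level was 9.60 in FTV against 6.71 to 7.72. DHX58 had 0.64 in FBR, -0.79 in FTV, 0.50 in FNV and 0.20 in FKN, and DDX60 had 0.75 in FBR, -0.50 in FTV, 0.24 in FNV and 0.95 in FKN. Over all members this pattern, below 0 in FTV and above 0 in the other 3 animals, was present in 12 of 31 genes, against 2.26% of all tested features. The other 8 were IFIT5, OAS1, OAS2, IFI27, IFI44L, XAF1, PARP9 and PARP14.

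ISG15 is the ubiquitin-like protein that HERC5 attaches to new proteins. Its stimulated levels were 15.15 in FTV, 12.09 in FBR, 11.996 in FNV and 13.52 in FKN. Its unstimulated levels were 16.11 in FTV, 12.79 in FBR, 11.96 in FNV and 13.92 in FKN, the widest range of any member at rest (4.16). The order of the animals was the same in both conditions. Its ratios were -0.66 in FBR, -1.004 in FTV, 0.076 in FNV and -0.36 in FKN (mean -0.49 ± 0.46, SD, n = 4; limma adjusted p = 0.0822). HERC5 had ratios of -0.26 in FBR, -1.14 in FTV, -0.0081 in FNV and -0.53 in FKN, and was well above background in 13 of 16 stimulated channels.

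**Figure D4:**
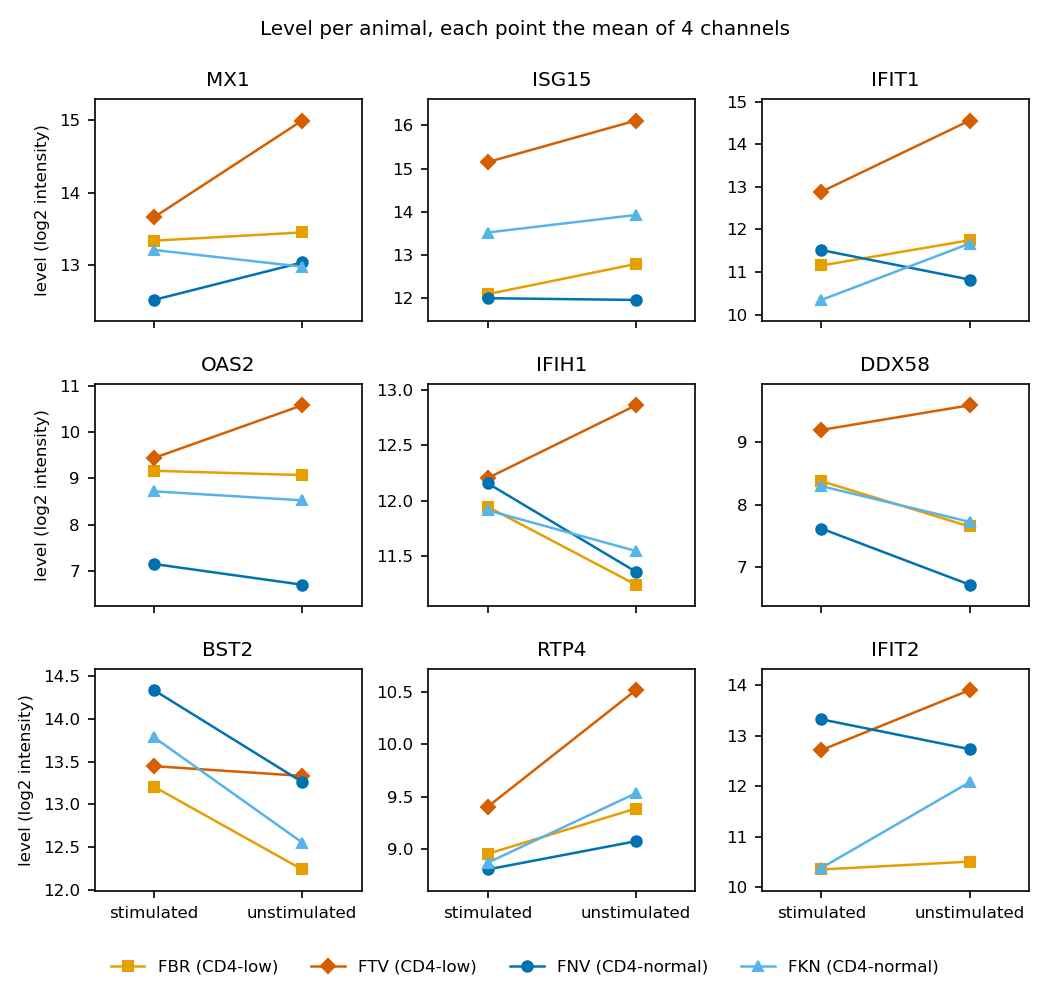
Level (vertical axis, log2 intensity) in stimulated and unstimulated cells for 9 genes, with 1 line per animal. FTV has the highest unstimulated level in each of the 9, IFIH1 levels of the 4 animals lie close together after stimulation, and ISG15 levels keep their order.

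STAT2, the partner of IRF9 in that complex, varied least. Its ratios were 0.10 in FBR, -0.28 in FTV, -0.076 in FNV and -0.14 in FKN, with an SD of 0.16, close to the median of all features. IFI27, a mitochondrial protein of the apoptosis pathway, had ratios of 0.14 in FBR, -0.23 in FTV, 1.59 in FNV and 0.71 in FKN (mean 0.55 ± 0.79, SD, n = 4; limma adjusted p = 0.196), and the 2 CD4-low animals lay below the 2 CD4-normal ones. IFI35, a partner of NMI, had 0.077 in FBR, -0.54 in FTV, -0.81 in FNV and 0.16 in FKN, the only member with a value in FNV below that in FTV. IFI44L had 0.23 in FBR, -1.51 in FTV, 0.017 in FNV and 0.076 in FKN, and passed the background limit in 3 animals. XAF1, which antagonises the apoptosis inhibitor XIAP, had 0.42 in FBR, -0.92 in FTV, 0.52 in FNV and 0.35 in FKN.

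The 3 PARP genes encode ADP-ribosyltransferases, of which PARP12 represses translation of viral RNA and PARP9 is the partner of DTX3L. PARP14 had ratios of 0.70 in FBR, -0.17 in FTV, 0.97 in FNV and 0.70 in FKN (mean 0.55 ± 0.50, SD, n = 4; limma adjusted p = 0.0742). PARP9 had 0.76 in FBR, -0.34 in FTV, 0.69 in FNV and 0.73 in FKN. PARP12 had -0.42 in FBR, -0.93 in FTV, -0.19 in FNV and -0.18 in FKN, below 0 in all animals. PARP9 and PARP14 thus had 3 animals close together above 0, and PARP12 had none above 0.

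Leaving out each animal in turn changed which members passed. Without FTV, 10 of 31 members were called higher, where 12.5% of all features were, and 1 was called lower (RTP4), where 13.7% were. The 10 were BST2, IFIT5, OAS1, IFIH1, DDX58, DHX58, DDX60, XAF1, PARP9 and PARP14, and so held all 4 RNA sensors and helicases. Without FTV, DDX58 had a mean log2 ratio of 0.68 (limma SE 0.073, n = 3; adjusted p = 0.00729), PARP9 0.72 (SE 0.064; adjusted p = 0.00527) and OAS1 0.61 (SE 0.11; adjusted p = 0.022). Without FNV, the animal of the other scan batch, 1 member was called higher (BST2; 24.5% of all features) and 7 lower (CMPK2, SAMD9, RTP4, IFIT1, ISG15, HERC5 and PARP12; 25.8%). Without FBR, 0 members passed limma's test, against 22.8% of all features, and 3 (BST2, SAMD9 and RTP4) had an unadjusted p under 0.05, against 39.5%. Without FKN, 0 passed, against 21.5%, and 5 (the same 3, TRIM22 and PARP12) had an unadjusted p under 0.05, against 37.6%. The calls of BST2, RTP4 and SAMD9 over 4 animals were thus lost when either of these animals was left out. FTV was singled out after its values had been seen, so the counts without it describe the other 3 animals and are no test of a difference between FTV and them.

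**Figure D5:**
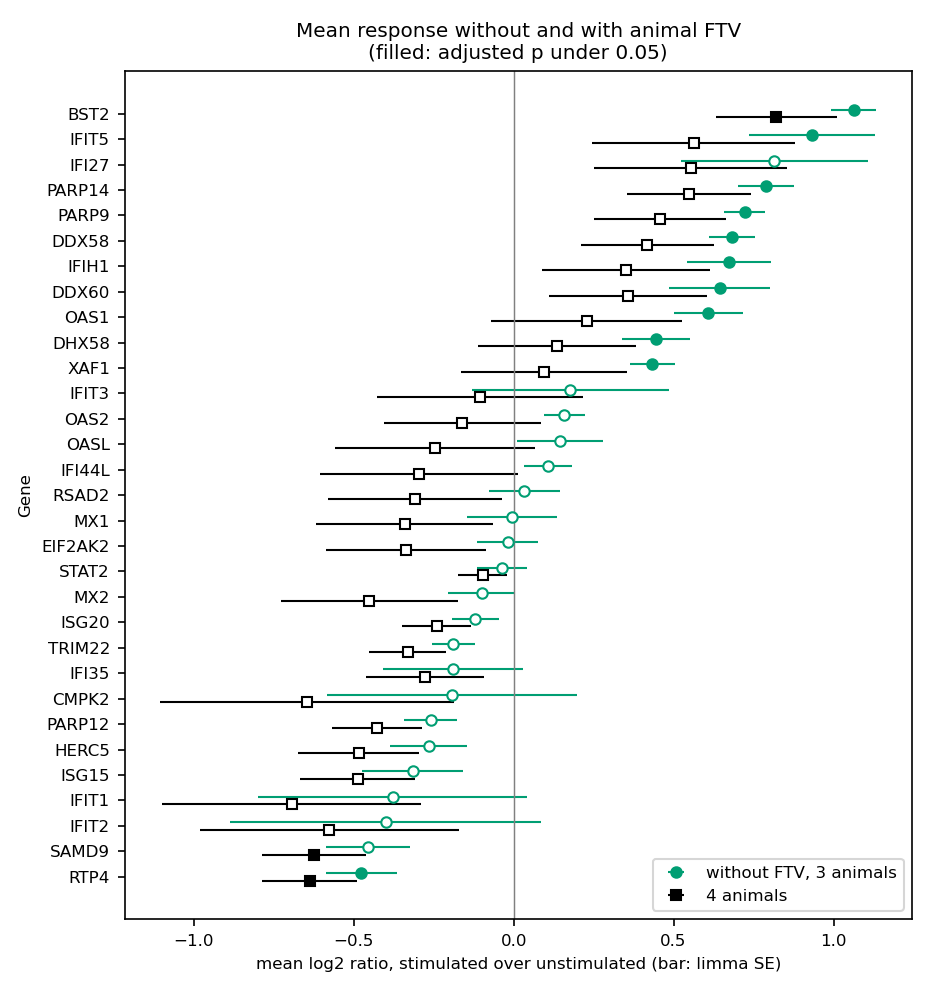
Mean log2 ratio of stimulated over unstimulated (horizontal axis) for the 31 genes without FTV (circles, 3 animals) and over 4 animals (squares), with limma standard errors as bars and filled symbols where the adjusted p was under 0.05. Without FTV, 10 genes pass above 0 and RTP4 passes below 0.

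CD4 status was compared as CD4-low (FBR and FTV) minus CD4-normal (FNV and FKN), 2 animals against 2. No member and no tested feature passed limma's test for the response, the stimulated level or the unstimulated level (0% called in each). At an unadjusted p under 0.05, 2 of 31 members were called for the response (ISG15 and IFI27; 2.14% of all features), 0 for the stimulated level (2%) and 4 for the unstimulated level (OAS2, EIF2AK2, IFI27 and PARP12; 1.68%). The members' median difference was -0.54 for the response, 0.59 for the stimulated level and 1.09 for the unstimulated level, against 0.020, -0.032 and -0.054 in that order over all features. Without FTV the members' medians were 0.0020 for the response, 0.18 for the stimulated and 0.17 for the unstimulated level, and without FBR they were -1.09, 0.86 and 1.85. CD4 status and the animal FTV cannot be told apart with 2 animals in a group.

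After stimulation the groups did not overlap in 14 of 31 members with CD4-low above (15.6% of all features). In 1, BST2 on the probe used, CD4-low lay below (18.4%). The largest differences were OAS2 (1.37), EIF2AK2 (1.32), MX2 (1.14) and IFIT1 (1.09), followed by IFI35 (0.98). OAS2 had 9.17 in FBR and 9.44 in FTV, against 7.15 in FNV and 8.72 in FKN, and EIF2AK2 had 8.79 in FBR and 9.22 in FTV, against 6.93 in FNV and 8.44 in FKN. In both, the animal far from the rest was FNV. Both probes were well above background in 14 of 16 stimulated channels, and in 15 (OAS2) and 14 (EIF2AK2) of 16 unstimulated ones. The stimulated levels of FNV include its self-self array, which had the lowest share of spots well above background. MX2 had 10.40 in FBR and 10.80 in FTV, against 8.52 in FNV and 10.40 in FKN after stimulation, so FNV was far below the other 3 and FBR was level with FKN. IFI35 had 11.12 in FBR and 11.97 in FTV, against 10.11 in FNV and 11.01 in FKN.

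At rest, both CD4-low animals lay above both CD4-normal animals in 13 of 31 members, against 14.5% of all features, and below them in 0, against 19.6%. OAS2 had the largest difference: 9.07 in FBR and 10.58 in FTV, against 6.71 in FNV and 8.53 in FKN, a difference of 2.21 (limma SE 0.80, unadjusted p = 0.0439, adjusted p = 0.824). EIF2AK2 had 9.03 in FBR and 10.55 in FTV, against 6.62 in FNV and 8.54 in FKN. On these probes of both genes FNV was far below the other 3, and FBR was nearer to FKN than to FTV. A second EIF2AK2 probe had 8.25 in FBR, 9.59 in FTV, 7.72 in FNV and 8.10 in FKN, so FNV lay close below FKN there. The third EIF2AK2 probe had 6.77 in FNV and 8.34 in FKN. OAS1 differed by 1.92, with 11.24 in FBR and 13.48 in FTV, against 9.58 in FNV and 11.29 in FKN, so the groups overlapped. IFIT1 differed by 1.90, with 11.75 in FBR and 14.55 in FTV, against 10.82 in FNV and 11.67 in FKN. MX2 differed by 1.73, with 10.41 in FBR and 12.34 in FTV, against 8.91 in FNV and 10.38 in FKN.

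In the response, both CD4-low animals lay below both CD4-normal animals in 9 of 31 members, against 11.4% of all features, and above them in 0, against 15.4%. CMPK2 had the largest difference, a mean response of -1.39 in CD4-low and 0.10 in CD4-normal animals, a difference of -1.49 (limma SE 0.71). IFI27 had a mean response of -0.046 in CD4-low and 1.15 in CD4-normal animals, a difference of -1.20 (SE 0.34, unadjusted p = 0.0214). OAS1 (-0.94), RSAD2 (-0.87) and EIF2AK2 (-0.81) followed. For IFI27 the level was 10.03 in FBR and 10.09 in FTV, against 10.32 in FNV and 9.39 in FKN in stimulated cells. In unstimulated cells it was 9.90 in FBR and 10.35 in FTV, against 8.72 in FNV and 8.79 in FKN, so its groups overlapped after stimulation and not at rest.

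Of 87 other listed genes of interferon signalling, 57 were measured, of which 21 rose, where 19.1% of all features did, 9 fell, where 21% did, and 27 did not pass. Of the ligands 1 of 10 was measured: IFNG, the type II interferon, with log2 ratios of 6.11 in FBR, 5.26 in FTV, 6.04 in FNV and 4.62 in FKN. The rise of IFNG was 45.5-fold (mean log2 ratio 5.51 ± 0.70, SD, n = 4; limma adjusted p = 0.000552). No type I interferon gene had a probe that was matched by symbol and kept by the filter on dim probes. Of the type I receptor, IFNAR1 had ratios of -0.27 in FBR, -0.95 in FTV, -0.12 in FNV and -1.18 in FKN, and IFNAR2 had -0.21 in FBR, 0.059 in FTV, -0.34 in FNV and -0.38 in FKN. Neither passed. IFNGR1, the binding chain of the IFNG receptor, was higher in all 4 stimulated samples (mean log2 ratio 0.39 ± 0.13, SD, n = 4; limma adjusted p = 0.00915), and IL10RB, a chain shared by the receptors of IL-10 and type III interferons, was lower in all 4 (mean -0.30 ± 0.098; limma adjusted p = 0.0148).

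Of the signalling genes, JAK2 (mean log2 ratio 1.38 ± 0.37, SD, n = 4; limma adjusted p = 0.00203) and STAT3 (0.60 ± 0.20; limma adjusted p = 0.00531) rose. JAK1 (-0.24 ± 0.21) did not pass. IRF7, the factor that drives type I interferon genes, had an unstimulated level of 14.07 in FTV against 11.61 to 12.38 in the other animals, and ratios of 0.85 in FBR, -0.49 in FTV, 1.08 in FNV and 1.00 in FKN. IRF7 was added to the per-gene account after its values were seen, and it was the only inducer at least 1 above the next animal in FTV at rest. Of the 12 measured inducers 4 had their highest unstimulated level in FTV, against 20.9% of all features. Among the brakes, SOCS1, which blocks JAK kinases, was higher in every stimulated sample, with a mean log2 ratio of 1.72 ± 0.25 and a limma adjusted p of 0.000673. PTPN2, a phosphatase of JAK and STAT proteins, averaged 1.25 ± 0.31, with a limma adjusted p of 0.00181. Of the 8 measured brakes 4 rose (19.1% of all features) and 1 fell (21%).

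Of 28 measured further interferon-stimulated genes, 9 rose (19.1% of all features), 4 fell (21%) and 15 did not pass. The 5 with the largest changes all rose. GBP1, a GTPase that attacks intracellular pathogens, had ratios of 3.05 in FBR, 1.52 in FTV, 2.93 in FNV and 2.97 in FKN (mean 2.62 ± 0.73, SD, n = 4; limma adjusted p = 0.00205). Mean log2 ratios were 1.87 ± 0.87 for CCL8, a monocyte chemokine, 1.02 ± 0.51 for GBP2, 1.003 ± 0.39 for the peptide transporter gene TAP1 and 0.97 ± 0.40 for DTX3L (SD, n = 4 each; limma adjusted p from 0.00633 to 0.0134). Among the 12 measured inducers of interferon 4 rose (19.1% of all features) and 3 fell (21%), with the largest rise in TMEM173, which encodes the DNA-sensing adaptor STING (mean log2 ratio 1.11 ± 0.34; limma adjusted p = 0.00307). The ratio of GBP1, CCL8, GBP2, TAP1 and DTX3L was above 0 in FTV too, and in each FTV was the lowest of the 4 animals. Of the 28 genes, 20 had their highest unstimulated level in FTV (20.9% of all features) and 20 their lowest ratio there (22%), while of the 4 receptors 1 and of the 4 signalling genes 1 had its highest unstimulated level in FTV.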

How the data were processed

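The authors deposited 1 scanner file per array with spot and background intensity on a linear scale and a log10 ratio of red over green, written by Agilent Feature Extraction (version 10.7.3.1, per the file headers). They also deposited log2 ratios per animal, and how these were normalised is not known here. The submitters' processing notes name limma without its role. Here, limma 3.58.1 (R 4.3.3, statmod 1.5.0) corrected mean signals with normexp (offset 50) and applied loess within each array, giving control and outlier spots no weight. Each animal's 2 ratio arrays were averaged. Levels used Aquantile between arrays. A probe was kept where well above background on both ratio arrays in 1 condition's channel in at least 2 animals. limma's lmFit and eBayes tested 4 ratios against 0, and CD4-low minus CD4-normal, with Benjamini-Hochberg adjustment over 23099 features. Each ratio is within 1 animal, so the labels' animal numbers pair the samples. Gene names are those of the newer of 2 annotation editions. Figures used Python 3.11.15 and matplotlib 3.10.9.

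Members, gene lists and markers were chosen with earlier results of these data known. All matched members are named, with per-animal values for those that passed, the 3 highest and 3 lowest by mean ratio, and the 5 with the largest CD4 difference in each measure. Pathway genes named are the ligands, receptors, signalling genes and the 10 largest changes that passed; 1 signalling gene is not reported here. The number of arrays limits the precision. Alternatives covered background correction, normalisation, filter, probe choice, annotation edition, scan batch, left-out arrays and animals, and the authors' table.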

Additional observations from a re-analysis of the deposited data

Results flagged for a closer look

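In each group of 4 animals the highest or lowest value was compared with its nearest neighbour by Dixon's criterion, for the ratio, the stimulated level and the unstimulated level of 31 members, 93 comparisons in all. Chance flags about 1 in 20. It singled out 10 values, all of them of FTV. FTV lay far below the other animals in the log2 ratio of BST2 (0.096), OAS2 (-1.12), DDX58 (-0.38), IFI44L (-1.51), XAF1 (-0.92) and PARP9 (-0.34). FTV lay far above the others in the unstimulated level of ISG20 (14.11), DHX58 (11.41), DDX60 (9.54) and IFI35 (12.54). No stimulated level was singled out. The members share RNA samples, so these are not independent observations. Each comparison used 1 probe per gene, and the share flagged over all tested features was not computed. FTV had already been seen to stand apart in these values, so the flags are no separate test of it.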

How the results depend on the processing

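With 4 animals and 1 RNA pair each, single animals decided the counts of members called. Leaving out 1 animal in turn gave 0 to 10 members called higher and 0 to 7 called lower, against 1 and 2 over 4 animals; 10 higher needed FTV left out, 7 lower needed FNV left out. With scan batch as a term, which tests the mean of the 3 later animals, 1 was higher and 7 lower. Without a filter on dim probes 1 member was lower. The self-self arrays alone gave 1 higher and 3 lower with the animal as replicate block, and 0 and 0 without the block. Pairing by animal is already in the main ratio. Among interferon pathway genes 5 were higher and 0 lower on these arrays with no replicate block, against 21 and 9 in the main test; 3 were lower with median centring in place of loess, and 3 to 11 when 1 animal was left out. The other alternatives kept the member counts at 1 higher and 2 or 3 lower. They were the scanner's ratio, median centring, no background correction, a filter of 4 animals, every probe, the disputed FNV array left out, the authors' table, and the older annotation edition. Of all tested features, 40% were called in either direction in the main test, 17.8% with median centring and 37.5% to 45.8% in the rest of these. The share was 50.4% with scan batch as a term and 23.3% without the filter on dim probes. On the self-self arrays it was 29.7% with the replicate block and 8.03% without. No named gene called under either setting changed sign: of 493 alternative values for the members 460 kept their call, 11 lost it and 22 gained it.

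The CD4-low minus CD4-normal median of the members ran from -1.09 to 0.0020 for the response, 0.18 to 0.86 for the stimulated level and 0.17 to 1.85 for the unstimulated level when 1 animal was left out. Without normalisation between arrays the stimulated median was 1.74. Members passing stayed at 0 in every alternative that kept 2 animals in each group. With 1 animal left out, 1 group holds a single animal without a spread of its own, so only the medians are given for those fits. With the 8 levels in 1 fit and the animal as replicate block, 0 passed and both medians were the same. FTV kept the highest stimulated level in 22 to 29 members, the highest unstimulated level in 29 to 31 and a ratio below 0 in 29 or 30 under the other normalisations and array subsets.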

Other observations

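Of the 9 listed genes not matched by the gene name column, 8 have a probe whose description names them, and PLSCR1 has none found so. They fall outside the 31 genes and were looked up after the members' values had been seen. HERC6, a relative of HERC5, had an unstimulated level of 13.27 in FTV, 11.03 in FBR, 10.04 in FNV and 10.86 in FKN, and log2 ratios of 0.020 in FBR, -0.96 in FTV, 0.64 in FNV and 0.059 in FKN. USP18, the protease that removes ISG15 and dampens the receptor, had an unstimulated level of 10.37 in FTV, 7.85 in FBR, 6.91 in FNV and 7.96 in FKN. Its ratios were -0.13 in FBR, -1.05 in FTV, 0.30 in FNV and -0.17 in FKN. IFI44 had ratios of 1.02 in FBR, -0.81 in FTV, 1.19 in FNV and 0.58 in FKN. OAS3 had ratios of -0.23 in FBR, -1.25 in FTV, 0.032 in FNV and -0.50 in FKN. Descriptions name 3 more genes as similar to the listed one. The probe for a protein like 6-16, an older name of IFI6, had ratios of -0.35 in FBR, -0.50 in FTV, -0.68 in FNV and -0.087 in FKN and passed as lower (limma adjusted p = 0.0331), with the lowest ratio in FNV and not in FTV. The probe for an SP110-like gene had 0.11 in FBR, -0.58 in FTV, 0.35 in FNV and -0.080 in FKN, and that for an EPSTI1-like gene had 0.46 in FBR, -0.70 in FTV, 0.81 in FNV and 0.87 in FKN. ZBP1, a sensor of Z-form nucleic acid, has 3 probes that disagree. One had ratios of -1.63 in FBR, -1.88 in FTV, -0.64 in FNV and -1.73 in FKN and passed as lower (limma adjusted p = 0.00545), while the other 2 did not pass (adjusted p = 0.346 and 0.13). FTV had the highest unstimulated level on all 10 of these probes and the lowest ratio on all but that of IFI6.

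On the probe used, the tetherin gene BST2 did not share the stimulated order of most members: FTV had 13.45 and FBR 13.21, below FNV (14.34) and FKN (13.79). The second BST2 probe placed FNV otherwise at rest, lowest at 8.16, against 8.67 in FBR, 9.57 in FTV and 8.90 in FKN. Its stimulated levels are not given here, so this order is that of a single probe. IFITM1, a virus entry inhibitor outside the 31 genes, fell by 0.53 ± 0.052 on the log2 scale (SD, n = 4; limma adjusted p = 0.00165), with ratios of -0.57 in FBR, -0.57 in FTV, -0.49 in FNV and -0.47 in FKN, so here FTV did not stand apart.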
